A study of Rangifer tarandus with 4 samples.

Results

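The genes described here encode the proteins of the cytosolic ribosome. They were chosen by name alone: protein-coding gene lines of the cattle annotation whose symbol is RPL or RPS followed by digits and at most 1 letter (A, X, Y or L) with further digits, or RPLP0 to RPLP2, or RPSA; the ribosomal S6 kinases were left out. This rule took 83 genes of the 21880 in the annotation, 49 of the large subunit and 34 of the small subunit. The series itself consists of 4 reindeer (Rangifer tarandus) libraries of blood mononuclear cells, read at the 3′ end of transcripts by a droplet method, 3 days after a wound, with about 12000 cells loaded for each. For 2 libraries, titled Back, the blood came from the saphenous vein and stands for the supply of the back skin; for 2, titled Antler, it came from the distal antler velvet. The labels give neither age nor sex and do not say of each library which site was wounded. Cell-by-gene counts were not analysed here, so none of these groups enters a result, and what follows concerns gene models of Bos taurus on assembly ARS-UCD1.2, not expression. All positions count from 1 on that assembly.

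A ribosome is built from a small subunit, which holds the mRNA and reads its codons, and a large subunit, which joins amino acids. Each cytosolic ribosomal protein is normally made from a single active gene with several exons, and its mRNA is among the most abundant in a cell, blood cells included. Because these mRNAs are so abundant they are often reverse transcribed back into the genome, which leaves intronless copies, most of them inactive and a few of them functional. In mammals the working genes are known for short untranslated regions (UTRs) and for a start site in a run of pyrimidines, through which the mTOR pathway controls their translation.

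The set was nearly complete by name, and a single copy carried the symbol of another member. Of 79 symbols in a list of the human cytosolic ribosomal proteins, 77 were matched, among them FAU, which encodes a ribosomal protein fused to a ubiquitin-like protein and lies outside the naming rule. No gene carried the symbols RPL31 or RPL41, which are left aside. The 83 genes carried 82 different symbols. A single symbol, RPS29, was held by 2 genes; among all other named protein-coding genes, 0.517% of symbols (86 of 16623) had more than 1 gene. Only 2 of the 83 genes, RPL10L and a copy of RPS29, had 1 exon in every transcript, where 4.39% of the other named protein-coding genes had (735 of 16725). The rule reads symbols, so it cannot see copies without one: 5053 protein-coding genes had no symbol, and 2001 of those had a single exon. Which of them resemble ribosomal proteins was not examined, as no sequence was used. The 83 genes are the full set that the rule defines and not a sample, so the differences from other genes given below are descriptions and were not tested.

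RPS29 encodes a small zinc-binding protein of the small subunit. The multi-exon RPS29 gene (ENSBTAG00000052337) lay on chromosome 10 from 42627501 to 42629504 on the minus strand, with 3 transcripts of up to 3 exons. Its transcript with the shortest coding sequence had coding exons of 62, 100 and 6 bases, a 5′ UTR of 29 bases and a 3′ UTR of 92 bases. The other transcripts had coding sequences of 198 and 294 bases, with a 3′ UTR of 505 bases and none. The copy (ENSBTAG00000025666) lay on the same chromosome and strand from 26779223 to 26779393, 15848107 bases away. Its model covered 171 bases in a single exon, with no UTR on either side. Its coding sequence of 168 bases was exactly as long as that of the shortest coding transcript of the multi-exon gene, so the 2 models describe proteins of the same length, 56 codons. Whether the sequences match was not examined. The next gene downstream of the copy on its strand was PARP2, 866 bases away.

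The other genes with their whole coding sequence in 1 exon were paralogs of X-linked genes. RPL10L, a relative of RPL10 that takes its place in the male germ line in mice, lay on chromosome 10 from 39647709 to 39648473 on the minus strand (ENSBTAG00000024582). It had a single exon with a coding sequence of 642 bases, a 5′ UTR of 47 bases and a 3′ UTR of 73 bases. RPL10, which joins the large subunit late in its assembly, lay on chromosome X from 37450195 to 37453599 on the plus strand (ENSBTAG00000007454). Its transcripts had coding sequences of 1026 and 906 bases over 6 and 7 coding exons, both longer than that of RPL10L, and neither had a 3′ UTR. RPS4X, a protein of the small subunit, lay on chromosome X from 78400215 to 78405064 on the plus strand (ENSBTAG00000018800) and had 7 coding exons of 3, 78, 181, 98, 172, 158 and 99 bases. The gene with the symbol RPS4Y1 (ENSBTAG00000025617), a name given in humans to the Y-linked partner of RPS4X, lay on chromosome 23 from 10550062 to 10565808 on the minus strand. Its coding sequence had the same length as that of RPS4X, 789 bases, but lay in a single exon. A first, non-coding exon was set 14691 bases upstream, so that RPS4Y1 counts as a gene with 2 exons. Counted by coding exons, 3 of the 83 genes therefore had 1 (RPS29 copy, RPL10L and RPS4Y1), against 6.64% of the other named protein-coding genes. RPL36AL, whose symbol has more letters than the rule allows, showed the same form: its single exon on chromosome 10 (42657516 to 42657836, minus strand) had a coding sequence of 318 bases with no UTR, and the X-linked RPL36A had a transcript of exactly 318 coding bases in 5 coding exons.

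Paralogs with several exons differed in how far their exon lengths matched those of their partner. For each pair, the transcripts with the closest coding lengths were set side by side. RPS27 and RPS27L, which in humans is induced by p53, both had 4 coding exons of 6, 109, 111 and 26 bases. RPL3, which lies near the site of peptide bond formation, and its muscle form RPL3L both had 10 coding exons, and the first 9 were of equal length (3, 193, 169, 136, 187, 161, 102, 96 and 120 bases). The last coding exon had 42 bases in RPL3 and 54 bases in RPL3L. RPL22 had coding exons of 12, 105, 125 and 142 bases and RPL22L1, its close relative, 9, 93, 122 and 142 bases, so that only the last was of equal length. RPL26 and RPL26L1 both had 3 coding exons, of 168, 141 and 126 bases in RPL26 and of 168, 140 and 16 bases in RPL26L1. The coding sequence of RPL26L1 was 324 bases long, against 435 bases in RPL26, and its 3′ UTR measured 308 bases, against 41 bases. In RPL7 the coding exons measured 14, 109, 167, 138, 110 and 206 bases. The longer transcript of RPL7L1 had coding exons of 41, 109, 164, 138, 110 and 206 bases; its other transcript, which is the one drawn, lacked a start codon and began with 111 coding bases. No gene carried the paralog symbols RPL39L or RPS4Y2.

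**Figure D1:**
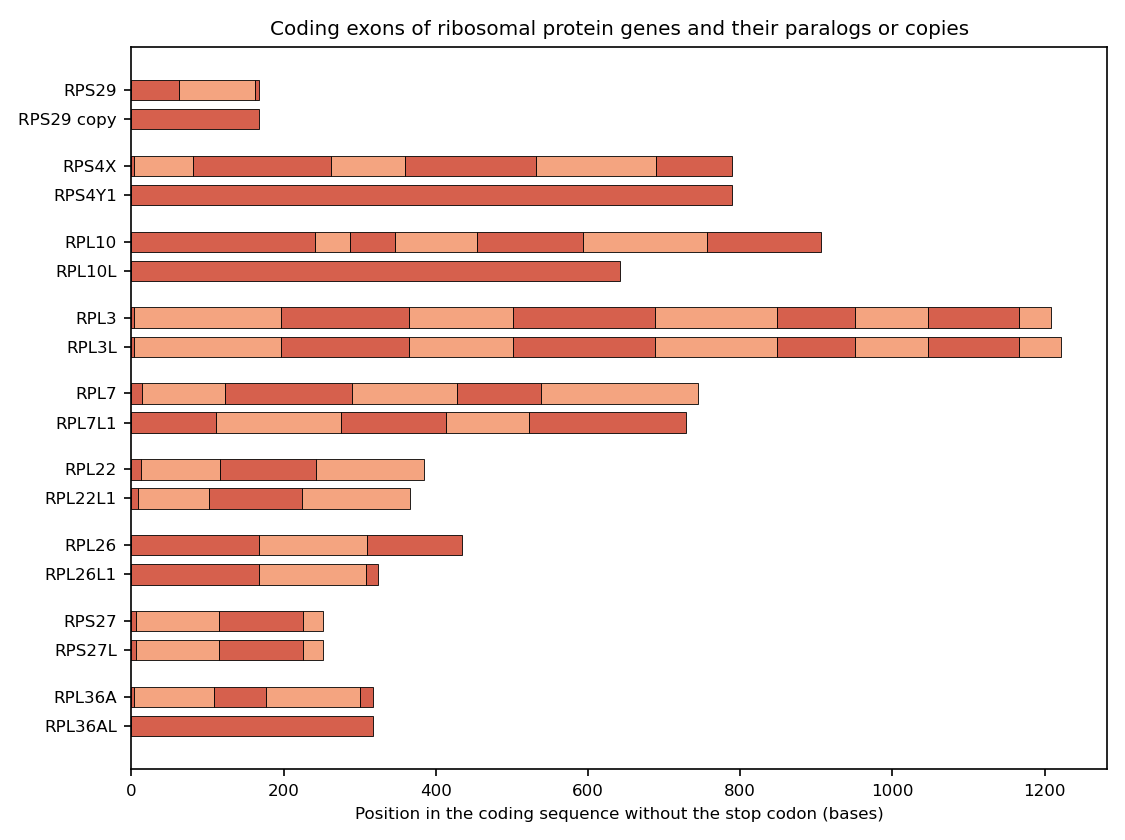
Coding exons, drawn to scale in bases along the coding sequence without the stop codon, for 9 pairs of ribosomal protein genes; alternating shades mark neighbouring exons and each pair shows the 2 transcripts with the closest coding lengths. RPS29 copy, RPS4Y1, RPL10L and RPL36AL are single blocks beside partners with 3, 7, 7 and 5 coding exons, while RPL3 with RPL3L and RPS27 with RPS27L break at the same places.

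Ribosomal protein genes were compact. The median gene spanned 3890 bases, against 21230 bases in the other named protein-coding genes and 6918 bases in 77 genes of the mitochondrial ribosome, a separate family that serves the ribosome inside mitochondria. The median number of exons was 5, as in the mitochondrial family, against 8 in the other named genes, and 75 of the 83 genes had 4 to 8 exons. RPL4, a protein of the peptide exit tunnel, had the most exons with 11. Introns of the 81 multi-exon genes summed to a median of 2889 bases in the transcript with the longest coding sequence, against 18866 bases over the other named genes with several exons. Coding sequences ran from 153 bases in RPL39, a protein of 51 codons in the exit tunnel, to 1347 bases in 1 transcript of RPL3L, with a median of 495 bases, against 1350 bases over the other named genes. Among multi-exon genes the shortest span was that of RPS28, at 1133 bases. The longest spans were 29868 bases in RPL11, which with RPL5 binds the 5S RNA of the ribosome, and 26019 bases in RPSA, also known as the laminin receptor. The 83 genes had 134 transcripts, 49 genes had 1, and RPS24 had the most with 5.

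The 3′ UTR was present in most of these genes and usually short. A 3′ UTR of at least 1 base was annotated for 78 of 83 genes, or 93.98%, against 79.7% of the other named protein-coding genes and 93.5% of the mitochondrial ribosomal protein genes. Taking the longest over transcripts, the median of those with a 3′ UTR was 66 bases (quartiles 47.25 and 299.5 bases). Over the other named genes it was 653 bases (quartiles 289 and 1178 bases), and over the mitochondrial ribosomal protein genes 266 bases (quartiles 144.75 and 505.5 bases). A 3′ UTR under 100 bases was found in 50 of these 78 genes, or 64.1%, against 6.61% of other named genes that had one (881 of 13331) and 12 of 72 mitochondrial ribosomal protein genes. Just below that limit lay RPL19 with 94 bases, and just above it RPL11 and RPS24 with 107 bases each. Large and small subunit genes were alike in this respect, with medians of 68 and 62 bases.

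**Figure D2:**
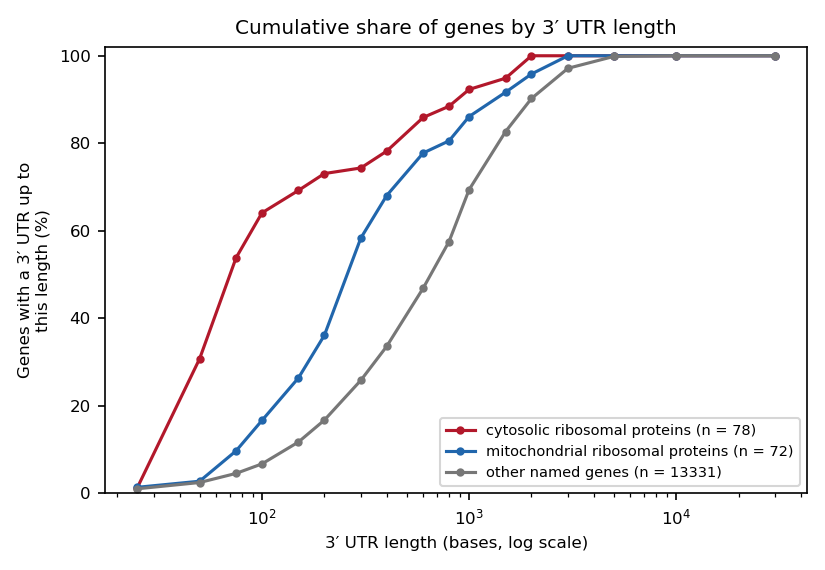
Cumulative share of genes (percent, vertical axis) by 3′ UTR length (bases, log axis) for 78 cytosolic ribosomal protein genes, 72 mitochondrial ribosomal protein genes and 13331 other named protein-coding genes with a 3′ UTR; points are counts up to fixed lengths. At 100 bases the curve of the cytosolic genes stands at 64.1% and that of the mitochondrial family at 16.7%.

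The shortest 3′ UTRs measured 13 to 34 bases. RPL27 had 13 bases, RPL13A, which also silences inflammatory mRNAs in human monocytes, had 29 bases, and RPS15 had 31 bases. RPL10A followed with 32 bases, and RPL8 and RPS15A had 34 bases each. At the other end stood a small group with long ones: 6 genes had a 3′ UTR over 1000 bases. RPSA had 1965 bases, RPL6 had 1670 bases and RPL27A had 1577 bases. RPL15 had 1540 bases, RPL7L1 had 1424 bases and RPL21 had 1034 bases. Long 3′ UTRs were more common elsewhere. Of the 78 cytosolic genes with a 3′ UTR, 92.3% had at most 1000 bases. Among the other named genes with one this share was 69.4%, and in the mitochondrial family 86.1%. For RPL6, RPL15 and RPL21 the long 3′ UTR belonged to their only transcript. In RPL7L1 it belonged to a transcript without an annotated start codon, and the transcript with the longest coding sequence had 6 bases. In RPL27A both transcripts had it. In RPSA it belonged to 1 of 3 transcripts, and the others had none. The acidic stalk proteins RPLP0, RPLP1 and RPLP2, which recruit the GTPase translation factors, had 83, 39 and 53 bases. RPS6, the target of the S6 kinases, had 310 bases. RPS19, mutated in Diamond-Blackfan anaemia in humans, had 54 bases.

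Transcripts of 1 gene often differed in the 3′ UTR. Of the 34 genes with several transcripts, 26 had 3′ UTRs of different lengths and 16 had at least 1 transcript with a 3′ UTR and 1 without. RPS2, at the mRNA entry side of the small subunit, ranged from 51 to 422 bases over 4 transcripts. RPS14, whose loss drives the anaemia of the human 5q deletion syndrome, had transcripts with no 3′ UTR, with 66 bases and with 936 bases. RPL30 had transcripts with none, 52 and 823 bases. RPS26 had 915 bases in a transcript without an annotated start codon and none in the other. RPL22 had 559 and 68 bases in its 2 transcripts. In 12 of the 83 genes the longest 3′ UTR lay outside the transcript with the longest coding sequence. These counts were not made over other genes, so they do not set the family apart.

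**Figure D3:**
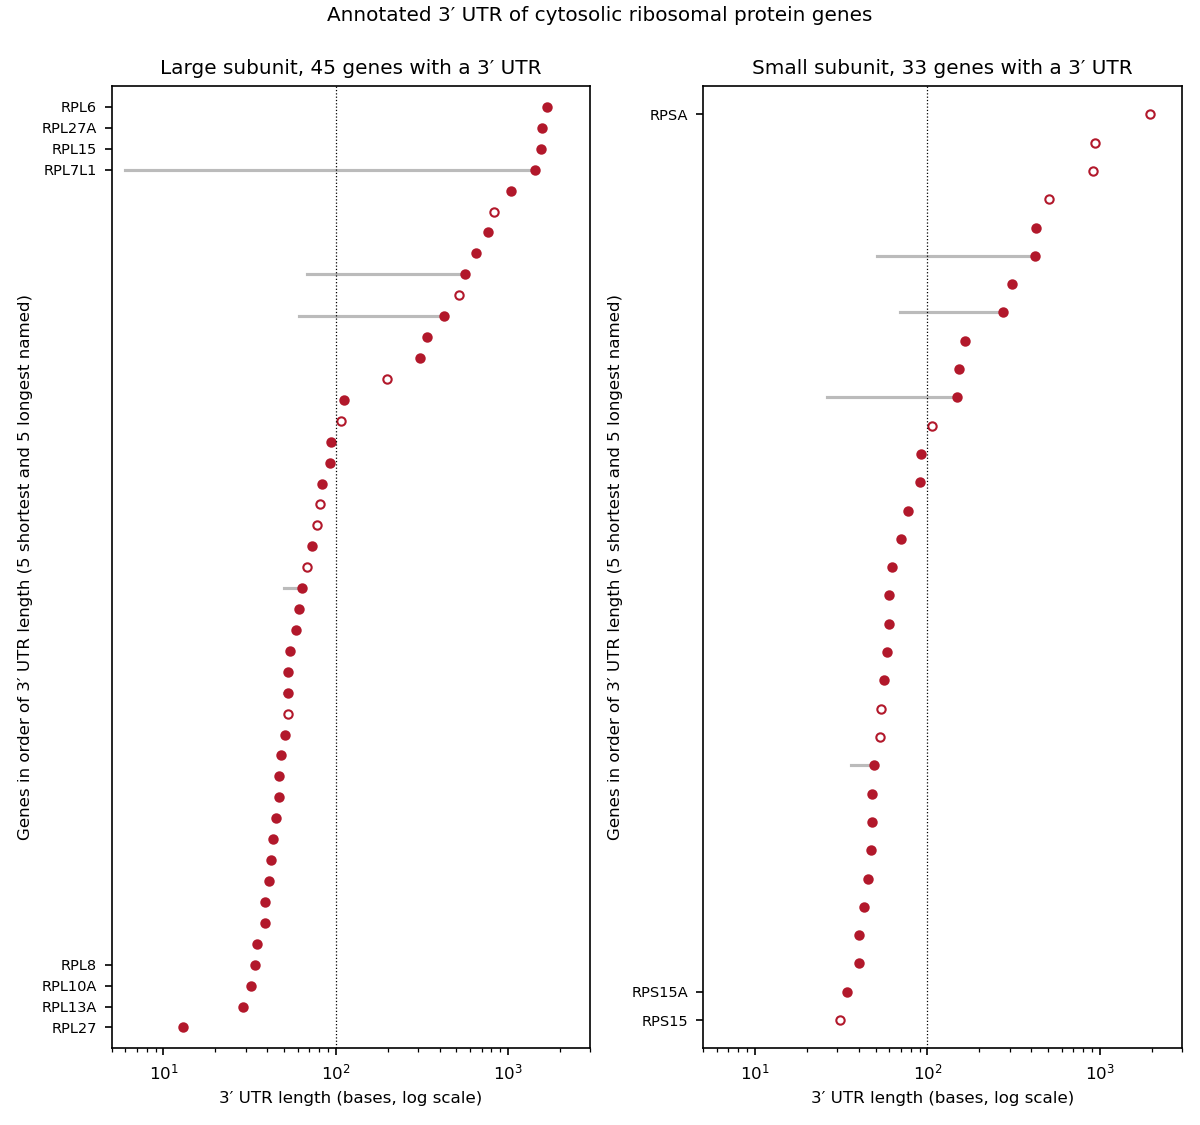
Longest annotated 3′ UTR (bases, log axis) of each of 45 large subunit and 33 small subunit genes that have one, sorted by length with the 5 shortest and 5 longest of all named, ties included; grey lines reach down to the shortest 3′ UTR among a gene's transcripts, open circles mark genes with a transcript that has none, and the dotted line marks 100 bases. Most genes sit between 29 and 100 bases, RPL27 lies lowest at 13 and RPSA highest at 1965.

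In 5 genes the models ended with the coding sequence. These were the RPS29 copy and the multi-exon genes RPL10, RPL13, RPL17 and RPL37A. RPL13 (ENSBTAG00000012044, chromosome 18, 14490263 to 14492655, plus strand) had neither a 3′ UTR nor a stop codon, and 1 of its introns measured 2 bases. RPL17, at the rim of the exit tunnel (ENSBTAG00000022902, chromosome 24, 49151058 to 49154341, minus strand), also lacked a stop codon. RPL37A (ENSBTAG00000051254, chromosome 2, 104486567 to 104489680, plus strand) and RPL10 had a stop codon but no base after it. The next gene on the same strand lay 2863 bases downstream of RPL17, 7817 bases downstream of RPL13, 12126 bases downstream of RPL10 and 130170 bases downstream of RPL37A. An intron between the stop codon and the end of the transcript occurred in 7 of 83 genes (RPL7, RPL7L1, RPL9, RPS3, RPS24, RPS25 and RPS28), against 5.66% of the other named genes; with 8.43% of the set, this lay near the background.

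At the 5′ end the median UTR was also shorter than in the other named genes, but the ranges between the quartiles overlapped. A 5′ UTR was annotated for 78 of the 83 genes, against 80.6% of the other named genes; RPL18, RPL23A, RPL28 and the RPS29 copy were among those with none. The median of the longest 5′ UTR per gene was 82 bases (quartiles 40.5 and 283.25 bases). The other named genes reached 211 bases (quartiles 94 and 441 bases) and the mitochondrial family 107 bases (quartiles 29 and 318 bases). RPL7 had the shortest with 4 bases. RPL3L, RPS15 and RPS27L had 20 bases each and RPL9 had 22 bases. The longest were 996 bases in RPL34, 947 bases in RPS2 and 904 bases in RPL11, followed by RPS14 with 901 bases and RPL37A with 874 bases. In RPL11 that length came from 1 transcript, which had 904 bases before the start codon and no 3′ UTR, whereas the other had 81 and 107 bases. Genes with 1 transcript had a median 5′ UTR of 51 bases and those with several had 278 bases, the length of a gene being the longest over its transcripts.

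Many of these genes were split right behind the start codon. In 21 of 83 genes at least 1 transcript had a first coding exon of exactly 3 bases, the start codon alone, followed by an intron; this was so in 1.48% of the other named protein-coding genes (247 of 16725) and in 0 of 77 mitochondrial ribosomal protein genes. The 21 genes were RPL3, RPL3L, RPL4, RPL5, RPL7A, RPL14, RPL18, RPL27A, RPL35, RPL36A, RPL37, RPL37A, RPL38, RPL39, RPS4X, RPS15, RPS18, RPS20, RPS24, RPS25 and RPS26, 14 of the large and 7 of the small subunit. In RPL39 the coding exons measured 3, 104 and 46 bases, and in RPS20 they measured 3, 100, 74 and 180 bases. In RPL37 they measured 3, 136, 85 and 67 bases. RPL38, which in mice affects the translation of homeobox mRNAs, had the start codon alone in its second exon, behind a first exon without coding bases. RPS12 had a transcript with a single coding base in its first coding exon, and RPS24 one with 2 bases. Other members came close, with first coding exons of 4 bases in RPS23, 5 bases in RPL10A, RPL19 and RPL24, and 6 bases in RPS6, RPS27, RPS27L and RPL11.

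Taking the smallest first coding exon per gene, the median was 21 bases over 79 genes with an annotated start codon and more than 1 coding exon. It was 103 bases over 15379 other named genes and 82.5 bases over 74 mitochondrial ribosomal protein genes. The first coding exon held at most 15 bases in 38 of the 79 genes, or 48.1%, against 6.99% of the other named genes and 1.35% of the mitochondrial family. Not all genes followed this pattern: the smallest first coding exon held more than 150 bases in 8 of the 79, among them RPL6 with 234 bases and RPL26 with 168 bases. The start codon lay in exon 1 of at least 1 transcript in 60 of the 83 genes, and in 22 it lay in exon 2 and in no first exon. RPL23A, a docking site at the exit tunnel, was the remaining gene, with no annotated start codon in its only transcript. Of the 16725 other named genes, 13233 had the start codon in exon 1 of at least 1 transcript. In 2800 it lay in exon 2 and in no first exon. Among the 77 mitochondrial ribosomal protein genes these counts were 68 and 8. These values depend on the transcript read: in the transcript with the longest coding sequence alone, 12 genes had the start codon by itself.

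**Figure D4:**
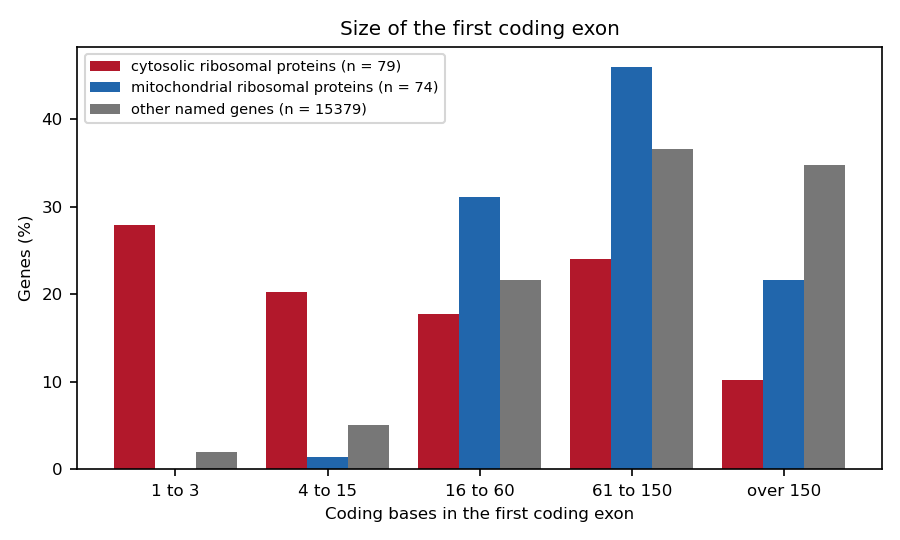
Percent of genes (vertical axis) by the number of coding bases in the smallest first coding exon of each gene, for 79 cytosolic ribosomal protein genes, 74 mitochondrial ribosomal protein genes and 15379 other named protein-coding genes; bars are shares of each group. The class of 1 to 3 bases holds 27.8% of the cytosolic genes, 0% of the mitochondrial family and 1.97% of the other named genes.

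No ribosomal protein gene shared exon bases with another gene on its own strand, against 1.82% of the other named genes (304 of 16725); the 2 shares lie close together. On opposite strands 4 genes shared exon bases, or 4.82%, against 7.47% of the other named genes. RPL19 shared 459 bases with the unnamed gene ENSBTAG00000050597 and RPL12 shared 91 bases with LRSAM1, in neither case in its own 3′ UTR. RPL35 shared 366 bases with WDR38, all of them within the RPL35 3′ UTR of up to 517 bases. RPS25 shared 31 bases with CCDC84, all within its 3′ UTR of 48 bases. None of the 83 genes lay inside an intron of another gene, and no gene of the annotation lay inside an intron of theirs. Nearly all genes of this annotation were protein-coding (21861 of 21880). Small nucleolar RNA genes, which are known to lie in introns of ribosomal protein genes, are not protein-coding, so this search could hardly find them. In 3 genes the next gene on the same strand began less than 1000 bases past the 3′ end, or 3.61%, against 2.23% of the other named genes. They were RPL3L with MSRB1 at 409 bases, RPS18 with B3GALT4 at 851 bases and the RPS29 copy with PARP2.

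Several of these genes stood head to head with a neighbour. In 10 of 83 genes, or 12.05%, the nearest gene before the 5′ end lay on the opposite strand at less than 1000 bases, against 6.73% of the other named genes and 18.2% of the mitochondrial family. Only neighbours without overlap were searched, in all groups, so overlapping head-to-head pairs are not counted. The gap was 77 bases between RPS18 and VPS52, a protein of vesicle tethering, and 113 bases between RPS25 and TRAPPC4. It was 122 bases between RPL15 and NKIRAS1, 135 bases between RPS28 and NDUFA7, a subunit of respiratory complex I, and 143 bases between RPL4 and ZWILCH. RPL9 stood 151 bases from LIAS, the mitochondrial lipoic acid synthase, and RPL7A stood 157 bases from MED22. RPS27A, which yields ubiquitin together with a ribosomal protein, stood 267 bases from CLHC1. RPL35A stood 311 bases from IQCG and RPS2 stood 840 bases from RNF151.

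The genes were spread over 28 of the 31 assembled sequences and none lay on an unplaced scaffold. Chromosome 18 held the most with 9, among them RPL13, RPL13A, RPL18, RPL28, RPS9, RPS16 and RPS19, and chromosomes 7, 10 and 19 held 6 each. Chromosomes 4 and 26 and the mitochondrial genome held none. Chromosome X held 4, RPL10, RPL36A, RPL39 and RPS4X. Neighbouring members were few. RPS2 and RPL3L lay 2305 bases apart on chromosome 25, on the same strand. RPL19 and RPL23 lay 250868 bases apart on chromosome 19.

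Genes that work with the ribosome were read in the same way. Of 19 translation genes in a list, many of which share the pyrimidine start with ribosomal proteins, 17 had a 3′ UTR. Its median length was 177 bases, and it was under 100 bases in 4 genes. Those were EEF1B2 with 61 bases and EEF1D with 53 bases, both subunits of elongation factor 1, EIF3E, a subunit of initiation factor 3, with 87 bases, and FAU with 47 bases. Of these 19 genes, EEF2, the translocation factor, had the start codon alone in its first coding exon, and none of the others did. Of 20 genes of ribosome assembly, 18 had a 3′ UTR, of 668 bases at the median. FBL, the methyltransferase of ribosomal RNA, with 78 bases, and NOP56, its partner, with 82 bases, were under 100 bases. NOP56 was also the only gene of that list with the start codon alone. FAU stood head to head with MRPL49, a mitochondrial ribosomal protein gene, at a gap of 157 bases.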

How the data were processed

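The source was a gene annotation of 1020224 lines that the authors deposited. Its assembly is ARS-UCD1.2 of cattle, per the file headers. Each deposited line gives a start and an end in bases and belongs to no sample, so no depth applies. The submitters' processing notes name STAR, Cell Ranger 3 and Seurat; their use of the annotation on reindeer reads is not described there.

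For each gene the longest 3′ UTR and 5′ UTR (summed segments), the largest number of exons, the longest coding sequence (without stop codon), exon bases shared with 1 other gene and gaps to neighbours were computed. Libraries were grouped by the site in the labels and entered no comparison. Members were set beside other named protein-coding genes, with no test. Members and lists were chosen with earlier results of these data known, and the limits of 100 bases (3′ UTR), 1000 bases (gaps) and 3 and 15 coding bases after values were seen. Named genes were all copies and paralogs, members with shared exon bases, members without a UTR and core symbols not matched and the extremes of each measure; others were named after their values were seen, and some members are counted but not reported here by name. The reader recovered all 9 quantities in 500 genes of a simulated annotation. Python 3.11.15, NumPy 2.4.6, pandas 2.3.3, SciPy 1.17.1 and matplotlib 3.10.9 were used.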

Additional observations from a re-analysis of the deposited data

How the results depend on the processing

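Alternatives changed the name pattern, biotype, chromosomes, transcript, minimum lengths, strand and background, and 27 values over 13 results were obtained; 19 stayed within 1.5 times the count or within the 95% interval of the main share or median. The share of genes with a 3′ UTR was 65.06% when at least 50 bases were required. The share that shared exon bases was 4.82% with either strand counted. Genes with the start codon alone fell from 21 to 12 when only the longest coding transcript of each gene was read. This reading was chosen after the values were seen, and the share in other named genes was then 0.897%. Some other alternatives were also chosen after the values were seen, and they are among those that stayed. They counted coding exons for single-exon genes and read 3′ UTRs under 100 bases in the longest coding transcript. They also set the 3′ UTR limit at 200 bases and the gap to head-to-head neighbours at 500 bases. With all other protein-coding genes, 65.4% had a 3′ UTR and 12.56% had a single exon. In the mitochondrial ribosomal protein genes the shares were 93.5% with a 3′ UTR, 2.60% with a single exon and 6.49% with shared exon bases. The cause of these shifts was not tested, beyond that unnamed genes enter the wider background. The median 3′ UTR ranged from 59.5 to 66 bases and the median 5′ UTR from 66 to 82 bases. No paired analysis was possible because no measurement of the samples was analysed. Models of cattle genes limit what can be said of reindeer, and an absent UTR in a model does not show that the mRNA lacks one.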

Other observations

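Some gene models of the set were irregular, and these are given as values only. The same counts were not made over other genes, so whether the set is unusual in them cannot be told. Introns under 50 bases occurred in 4 genes: 2 bases in RPL13, 34 bases in RPS24, 36 bases in RPL18 and 49 bases in RPL36A. In 7 genes the transcript with the longest coding sequence had no annotated start codon (among them RPL23A, RPL27A, RPL35, RPS7, RPS18 and RPS26). In RPS7 that transcript had 783 coding bases, against 582 in the transcript with a start codon. Of the 34 genes with several transcripts, only 6 had 1 coding length in all of them. RPS12 had coding sequences of 396, 465, 618 and 687 bases.

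Among the translation genes, NAP1L1, a histone chaperone, was a single exon with 1173 coding bases on chromosome 6 (83916857 to 83918322, plus strand), and NACA, a ribosome-associated chaperone subunit, shared 1371 exon bases with PRIM1 on the same strand. RACK1, a scaffold protein on the small subunit whose symbol lies outside the naming rule, had a 3′ UTR of exactly 1000 bases. This length was not particular to RACK1: DKC1 of the assembly list and the mitochondrial ribosomal protein genes MRPL15 and MRPS7 had it too.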
